A study of Mus musculus with 5 samples.

Results

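CD8-negative T cells are described here from advanced pancreatic tumours of KPPCN mice, as profiled by droplet single-cell RNA sequencing. A unique molecular identifier (UMI) stands for 1 captured RNA molecule, read at its 3′ end. A cell was counted when it held at least 500 genes, at least 1 UMI of Cd3d, Cd3e or Cd3g, no UMI of Cd8a, Cd8b1, Cd79a or Cd79b, and fewer than 5 Dcn UMIs per 10000. This selected 637 of the 17771 barcodes of the series, and all 637 came from a single library, KPPCN 1. They were 11.8% of its 5378 cells with at least 500 genes (exact 95% binomial interval 11.0 to 12.7%). In the same library 335 cells met the rule in every respect but held a Cd8a or Cd8b1 UMI, and these CD8 T cells (6.23%) are the closest population for comparison. The members were chosen by the levels of these 8 genes, so those levels are given as a description only.

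T cells carry a T cell receptor, built from alpha and beta chains or from gamma and delta chains, that signals through the CD3 chains. Most alpha-beta T cells that lack CD8 are CD4 cells, which see peptides on MHC class II molecules and act as helper cells or, when they express the transcription factor Foxp3, as regulatory T cells that restrain other lymphocytes. Gamma-delta T cells and some other lymphocytes carry CD3 without CD4 or CD8. In pancreatic carcinoma, T cells lie among tumour epithelium, abundant fibroblasts and myeloid cells, and regulatory T cells are a well-known part of this infiltrate.

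KPPCN mice carry deletion of both Trp53 copies and deletion of Nsdhl, an enzyme of late cholesterol synthesis, under Pdx1-Cre, which acts in the pancreatic lineage; KPPC mice share the genotype but for the deletion of Nsdhl. The T cells of KPPCN mice therefore lie in a tumour whose epithelium was modified, and are not themselves the cells in which this Cre is meant to act. Per the labels' protocols the mice were 7 to 8 weeks old, 3 of each genotype were taken, dead cells were removed and blood-lineage cells were depleted by CD45 beads, so T cells found here are ones that escaped this depletion and their share is not their share in the tumour. Libraries of 2 KPPCN and 3 KPPC tumours were analysed here. All statements about the members come from 1 tumour, so no difference below has a replicate check, and every interval covers counting error only.

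KPPCN 1 was a shallow library and the other 4 were deep. Cells with at least 500 genes held a median of 2230.5 UMIs in KPPCN 1 and 21909.5 UMIs in KPPCN 2, against 17391 to 19052 UMIs in the KPPC libraries. No barcode of a member recurred in KPPCN 2. KPPCN 2 held 0 cells with a CD3 UMI among 2018, which allows a share of up to 0.149% by a limit of 3 counts and 0.183% by the exact 95% interval, and only 13 of its cells (0.644%) held a UMI of Ptprc, the gene of CD45, against 2122 (39.5%) in KPPCN 1. The mean share of members over the 2 KPPCN libraries was thus 5.92%, from 11.8% and 0%. The table of the KPPC tumours lists 1 of the 8 genes of the rule, Dcn, and holds no rows for Cd4, Foxp3, Ptprc or Lck. Each KPPC library had no gene above 0 in fewer than 37 cells, so genes of rare cells are missing from that table, and the rule could not be applied to the KPPC tumours. Trac, the constant region of the alpha chain, is listed there, with UMIs in 111 cells (3.38%, 129 UMIs) of 1 KPPC library and no UMI in the other two, but with no row for a CD3 gene these cells could not be sorted into members and others. No comparison between the genotypes was made. Trbc2, of the beta chain, did not help. It had UMIs in 57.4% of KPPCN 2 cells, which had no CD3 UMI and Trac UMIs in only 26 cells, and in 13.0 to 18.6% of cells in the KPPC libraries. Trbc1, also of the beta chain, had UMIs in 20.3% of KPPCN 1 cells, 0.942% of KPPCN 2 cells and 5.24 to 8.84% of cells in the KPPC libraries. Without CD3 rows the KPPC cells with Trbc1 could not be sorted either.

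The label held for most members. Of 13 T cell genes that the rule did not use, at least 2 had UMIs in 592 members (92.9%), against 98.2% of CD8 T cells, 16.5% of B cells (a Cd79a or Cd79b UMI and no CD3 UMI, 1644 cells) and 24.1% of fibroblasts (at least 5 Dcn UMIs per 10000 and no CD3 UMI, 2162 cells). The definitions of B cells and fibroblasts can overlap. Trac had UMIs in 48.4% of members, against 55.5% of CD8 T cells, 4.14% of B cells and 5.46% of fibroblasts. Trbc2, a constant region of the beta chain, had UMIs in 79.7% of members, against 88.4% of CD8 T cells, 10.3% of B cells and 13.2% of fibroblasts. Lck, the kinase that starts receptor signalling, had UMIs in 55.3% of members, against 70.1% of CD8 T cells and 6.02% of B cells. Ltb, which encodes lymphotoxin beta, is shared with B cells, with UMIs in 55.4% of members, 70.4% of CD8 T cells and 42.3% of B cells. At least 1 of Trac, Trbc1 and Trbc2 was found in 584 members (91.7%). Trac, Trbc2 and Lck thus lay far above their share in B cells and fibroblasts of the same library. Ltb lay far above its share in fibroblasts but not in B cells. With every cell thinned to 1000 UMIs it was found in 38.9% of members, 7.54% of fibroblasts and 30.5% of B cells. It was then found in 44.7% of B cells with at least 2 Cd79 UMIs and fewer than 5 Dcn UMIs per 10000.

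**Figure D1:**
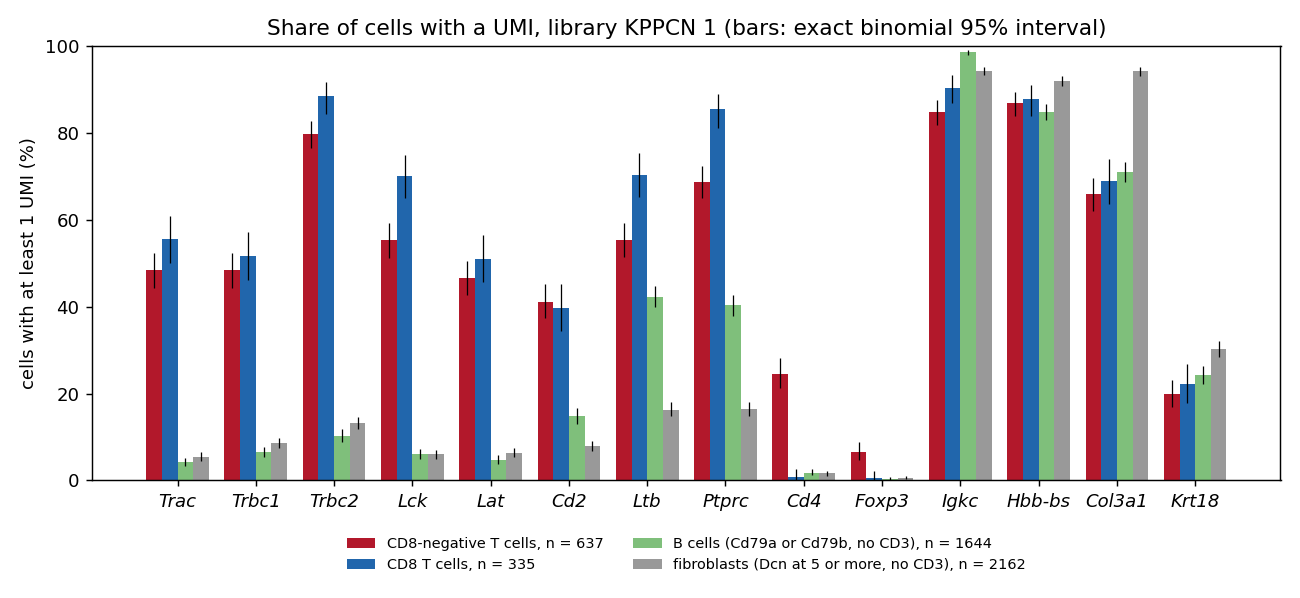
Share of cells with at least 1 UMI (y axis, %) of T cell genes, Cd4, Foxp3 and genes of other cells (x axis) in the 637 CD8-negative T cells, CD8 T cells, B cells and fibroblasts of KPPCN 1, with exact binomial 95% intervals. Trac, Trbc1, Trbc2, Lck and Lat stand high in both T cell populations, Cd4 in 24.6% of CD8-negative T cells and 0.896% of CD8 T cells, while Igkc and Hbb-bs have UMIs in most cells of every population.

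Some members rested on little evidence. Cd3d, Cd3e and Cd3g are neighbours on chromosome 9 and encode the delta, epsilon and gamma chains of CD3. All 3 had UMIs in 140 members, 2 in 252 and a single one in 245, and 175 members (27.5%) held just 1 CD3 UMI in all. Of these 175, 138 (78.9%) still had at least 2 of the other T cell genes. RNA of other cells was present throughout the library. Igkc, an antibody light chain, had UMIs in 84.8% of members and 90.4% of CD8 T cells, Hbb-bs, an adult beta globin, in 86.8% of members, and Col3a1, a collagen of fibroblasts, in 65.9% of members. Single UMIs of a gene in a cell are read against that background.

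Members also differed widely in depth. UMIs per cell were 736 at the lowest, 1810 at the median and 164847 at the highest in members, against a median of 2487 in CD8 T cells. The 57 members with at least 5000 UMIs held 47.0% of all UMIs of the members, whereas the 22 such CD8 T cells held 23.3% of theirs. At least 2 other T cell genes were found in 96.2% of members below 1500 UMIs, 97.5% from 1500, 92.1% from 2500 and 59.6% at 5000 UMIs or more. The deep members carried epithelial RNA: of 2380 UMIs of Krt18, a keratin of simple epithelia, 2216 lay in them. Doublets, droplets with more than 1 cell, were not removed, and their part in the results was not tested. Sums over cells are therefore given also for cells below 5000 UMIs, a choice made after seeing the data.

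Cells on both sides of each limit of the rule were compared. The 26 members with 500 to 549 genes had a median of 849 UMIs, and the 10 cells just outside, with 450 to 499 genes, had 766. Dcn UMIs were present in 108 members, from 0.3 per 10000 upward to the limit, and 318 cells were left out for Dcn alone, from 5.05 upward, of which 106 held a single Dcn UMI. A further 202 cells were left out for Cd79a or Cd79b alone, 97 of them for a single UMI. At least 2 of the other T cell genes were found in 67.3% of the cells left out for Dcn and in 73.8% of those left out for Cd79a or Cd79b, against 92.9% of members, although the cells left out were deeper, with medians of 2575.5 and 2465 UMIs.

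Cd4 was found in a minority of the members, in 157 of 637 (24.6%, interval 21.3 to 28.2%), and in 123 of these as a single UMI. The same gene had UMIs in 0.896% of CD8 T cells, 1.82% of B cells and 1.62% of fibroblasts of this library, whose median depths were 2487, 1403.5 and 3369.5 UMIs. With every cell thinned to 1000 UMIs, which left out 41 members, Cd4 had UMIs in 14.3% of members, against 0.300% of CD8 T cells, 0.336% of B cells and 0.397% of fibroblasts. Cd4 lies on chromosome 6 of GRCm38, from 124864692 to 124888221 on the minus strand, and its level was 99.5 CPM (UMIs per 1000000 UMIs of the population) in members and 3.86 CPM in CD8 T cells.

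Foxp3 had UMIs in fewer members. It was found in 42 (6.59%, interval 4.79 to 8.81%), 30 of them with a single UMI, against 0.597% of CD8 T cells, 0.304% of B cells and 0.648% of fibroblasts. Among the 155 members with at least 1000 genes it was found in 13.5%. After thinning, it was found in 4.03% of members, against 0% of 333 CD8 T cells (exact interval up to 1.10%). Cd4 and Foxp3 occurred together in 12 members, and 450 (70.6%) held neither. Of the 42 members with Foxp3, 9 held at least 5000 UMIs.

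The share of cells with a Cd8 UMI varied with depth. Among the 972 CD3-positive cells that met the other limits, a Cd8a or Cd8b1 UMI was present in 10.7% below 1500 UMIs, 33.8% from 1500, 61.8% from 2500 and 27.8% at 5000 or more. Cells with neither Cd4 nor Cd8 were 71.4%, 46.9%, 27.5% and 62.0% in the same order. Cd4 without Cd8 made up 17.9%, 19.2%, 10.7% and 10.1%. Cd4 and Cd8 UMIs met in 3 cells. At these depths a member without a Cd4 UMI can be a CD4 cell, a CD8 cell or neither, and these cannot be told apart by the 2 genes.

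**Figure D2:**
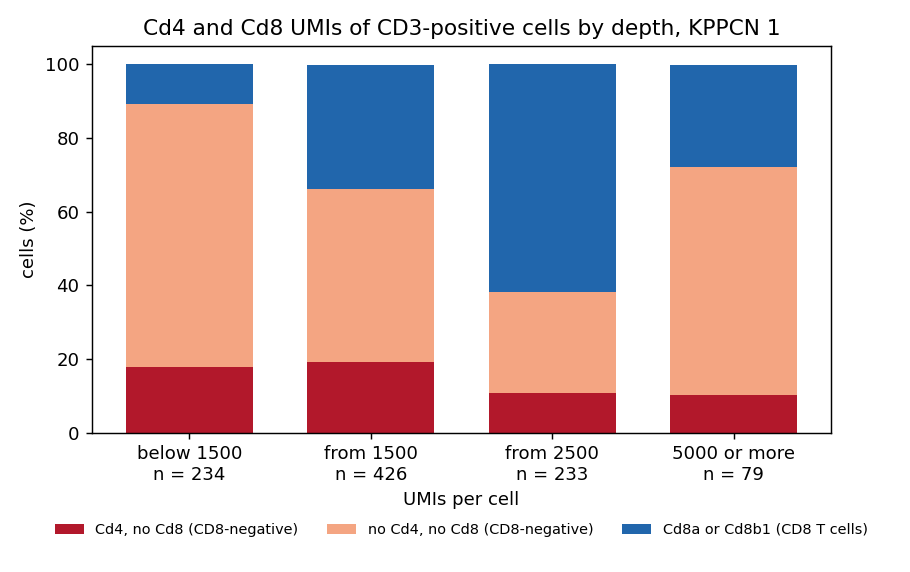
Share (y axis, %) of CD3-positive cells of KPPCN 1 with Cd4 and no Cd8 UMI, with neither, or with Cd8a or Cd8b1 UMIs, by UMIs per cell (x axis). The share with a Cd8 UMI is 10.7% below 1500 UMIs and 61.8% from 2500 to below 5000 UMIs, and cells with neither are 71.4% and 27.5%.

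Set against CD8 T cells, the members had more RNA of most regulatory T cell genes and less of most genes of killer lymphocytes, and lists of helper cell genes were mixed. This is a description of cells of 1 library, since the rule itself separated them by Cd8a and Cd8b1. Of 8212 genes with at least 30 UMIs over both populations, 1434 (17.5%) were at least 2-fold higher in members and 135 (1.64%) at least 2-fold lower, with a median log2 ratio of 0.25 over all 8212. Below 5000 UMIs, in 580 members and 313 CD8 T cells, 377 of 5933 genes were higher (6.35%) and 47 lower (0.792%), with a median of 0.18. RNA of other cells differed too. Over all cells 4 of 7 epithelial genes were higher and 1 lower, summing to 2508.8 CPM in members and 989 CPM in CD8 T cells. Below 5000 UMIs 3 of 3 erythroid genes were higher, at 6088.8 CPM in members and 2327.6 CPM in CD8 T cells. There 2 of 3 acinar genes were lower, and 0 of 4 B cell genes passed 2-fold. The part of this RNA was not tested.

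Of the 14 measured genes of the regulatory T cell list (17 in all), 11 were at least 2-fold higher in members and none was 2-fold lower, with a median log2 ratio of 2.00, and below 5000 UMIs 10 of 12 were higher, with a median of 2.42. Foxp3 had 62 UMIs in members and 2 in CD8 T cells, a CPM ratio of 15.8 (interval 4.20 to 134). Il2ra, the high-affinity chain of the interleukin-2 receptor, had 68 UMIs over 37 members and 1 UMI in CD8 T cells, a ratio of 34.7 (interval 6.02 to 1390.6), and below 5000 UMIs 41 UMIs in members and none in CD8 T cells, a level at least 10.1-fold higher against a limit of 3 UMIs. Both genes were thus nearly unseen in CD8 T cells. Ctla4, an inhibitory receptor, had UMIs in 9.58% of members and 2.09% of CD8 T cells, and its CPM ratio was 5.80 (2.82 to 13.9). Tnfrsf4, the costimulatory receptor OX40, had UMIs in 12.2% of members and 3.88% of CD8 T cells, with a ratio of 5.09 (3.44 to 7.79). Izumo1r, the folate receptor 4 of regulatory and other CD4 cells, had UMIs in 15.2% of members and 4.48% of CD8 T cells, with a ratio of 4.35 (2.70 to 7.41). By the median, members were the shallower population, with 1810 UMIs per cell against 2487 in CD8 T cells. This does not hold for every member, since 57 members and 22 CD8 T cells had at least 5000 UMIs. Ikzf2, which encodes the transcription factor Helios, had UMIs in 17.4% of members and 6.27% of CD8 T cells, and the ratio was 3.19 (2.18 to 4.83). Tnfrsf18, the receptor GITR, differed less, with UMIs in 18.5% of members and 16.4% of CD8 T cells and a ratio of 1.37 (1.04 to 1.83).

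The next 4 genes, known from helper cells, were chosen after their values were seen. Cd40lg, the helper ligand for CD40 on B cells and myeloid cells, had 34 UMIs spread over 31 members and 1 UMI in CD8 T cells, a ratio of 17.4 (2.91 to 705). Tnfsf8, the ligand of CD30, had UMIs in 7.69% of members and 4.48% of CD8 T cells, with a ratio of 2.74 (1.60 to 5.01). Icos, a costimulatory receptor, had UMIs in 16.2% of members and 11.0% of CD8 T cells and a ratio of 1.91 (1.36 to 2.74), below 2-fold. Zbtb7b, the transcription factor ThPOK that directs thymocytes to the CD4 fate, had UMIs in 49 members and 9 CD8 T cells, with a ratio of 2.60, and 13.3 below 5000 UMIs. Of the follicular helper list, 1 of 6 measured genes was 2-fold higher and none lower, near the 17.5% of all genes, and below 5000 UMIs 3 of 5 were higher, against 6.35% of all genes. The type 1 helper list ran the other way, with 3 of 6 measured genes lower and 1 higher (median log2 ratio -1.0), and below 5000 UMIs 2 lower and 1 higher. Few genes of the other helper lists were measured. For the type 17 list 2 of 2 were higher, and 1 of 1 below 5000 UMIs. The 1 measured gene of the type 2 list had a log2 ratio of 0.75, and of 1.09 below 5000 UMIs. Of cytokines of helper subsets, Il4, Il5, Il13, Il17f, Il21 and Il22 had no UMI in the 637 members, and Il17a had 1. Ifng, which encodes interferon gamma, had 39 UMIs in 15 members, Il2 had 25 UMIs in 20 members and Tnf had 25 UMIs in 22 members.

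Genes of cytotoxic lymphocytes were lower in members: 4 of 6 measured genes of the list of 9 were at least 2-fold lower and 1 was higher, with a median log2 ratio of -1.82, and below 5000 UMIs 3 of 6 were lower and 1 was higher (-1.17). Nkg7, a protein of cytotoxic granules, had UMIs in 15.4% of members and 69.0% of CD8 T cells, a level 4.63-fold lower in members (interval 4.01 to 5.35). Ctsw, a cathepsin of killer lymphocytes, had UMIs in 14.8% of members and 51.0% of CD8 T cells, and was 4.38-fold lower in members (3.55 to 5.42). Klrd1, the CD94 chain of NK receptors, had UMIs in 3.30% of members and 17.6% of CD8 T cells, and was 4.66-fold lower. Ly6c2, a surface protein of memory CD8 T cells, had UMIs in 7.69% of members and 40.3% of CD8 T cells, and was 5.68-fold lower (4.63 to 7.00). After thinning to 1000 UMIs, Nkg7 was found in 11.6% of members and 45.0% of CD8 T cells. Ly6c2 was then found in 5.70% of members and 24.6% of CD8 T cells. Ccl5, a chemokine of effector and memory T cells, was nearer, with UMIs in 17.1% of members and 28.1% of CD8 T cells. Gzma, a granzyme, was the exception, with 66 UMIs in 16 members and 10 UMIs in 6 CD8 T cells, a ratio of 3.37 (1.72 to 7.35), and 22 of the 66 came from 1 cell. Below 5000 UMIs Gzma had 61 UMIs in members and 3 in CD8 T cells, a log2 ratio of 3.91 against 1.75 over all cells.

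Genes of naive and recirculating T cells were mixed. Of 10, all measured, 1 was 2-fold higher and 2 were 2-fold lower in members, with a median log2 ratio of -0.52, and below 5000 UMIs none was higher and 1 was lower, with a median of -0.02. Dapl1 was the gene lower in both, with UMIs in 13.3% of members and 46.3% of CD8 T cells and a level 4.58-fold lower in members (3.78 to 5.58). Ccr7, the receptor that guides T cells into lymph nodes, had UMIs in 26.1% of members and 44.5% of CD8 T cells and was 2.13-fold lower (1.81 to 2.50), but its log2 ratio was -1.09 over all cells and -0.25 below 5000 UMIs. Tcf7, a transcription factor of naive and memory cells, had UMIs in 29.5% of members and 31.3% of CD8 T cells, and the interval of its ratio, 0.724 to 1.09, included 1. None of 12 genes of T cell receptor signalling and none of 10 measured genes of the TGFβ list differed 2-fold, with medians of -0.34 and 0.61, and none of 10 interferon-stimulated genes did, with a median of -0.32. Over all cells 2 of 13 measured genes of the cholesterol list were higher and none lower. This share was no larger than the 17.5% of all genes. The 2 genes were Nsdhl, with 34 UMIs in 25 members and 8 UMIs in CD8 T cells, and Sqle, the gene of squalene epoxidase. Nsdhl had a ratio of 2.17 whose interval, 0.985 to 5.42, included 1, and Sqle a ratio of 2.30 (1.05 to 5.72). In cells below 5000 UMIs 2 of 8 measured genes of this list were higher and none lower, against 6.35% of all genes.

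**Figure D3:**
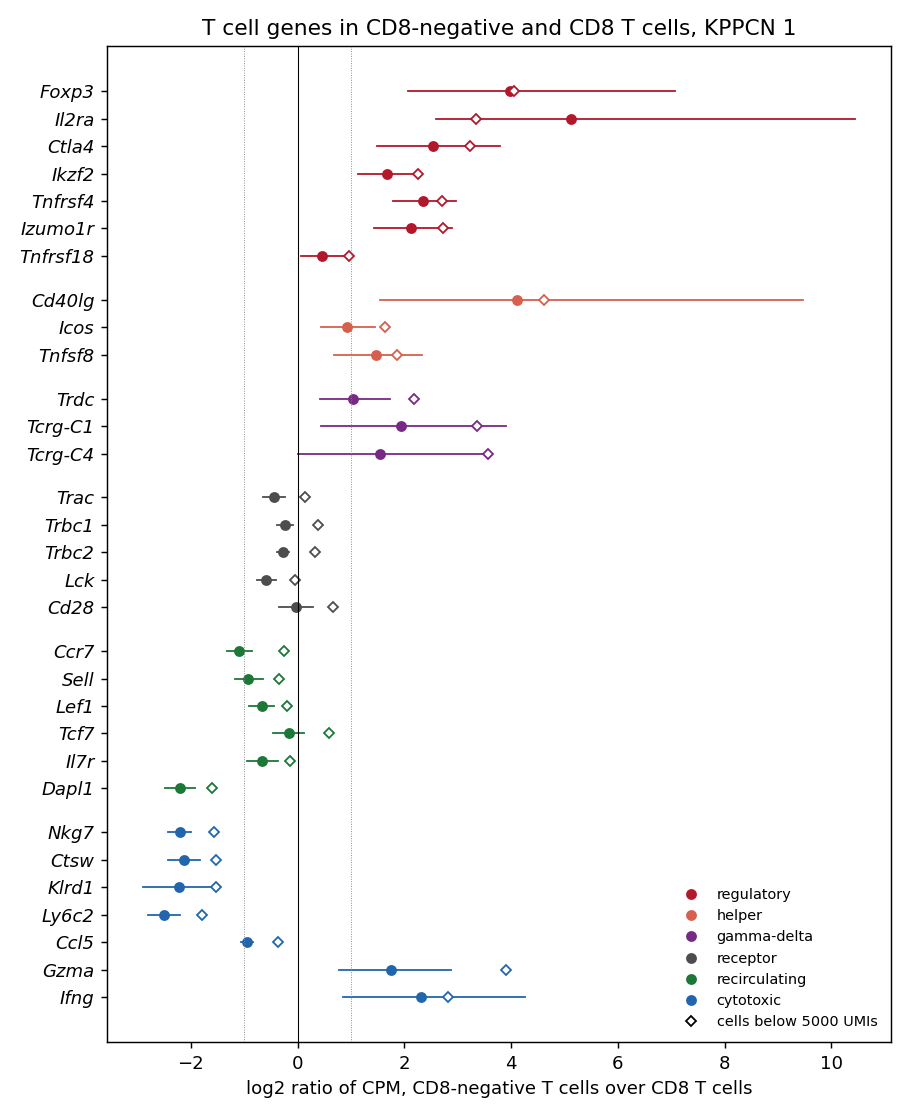
Log2 ratio of CPM, CD8-negative T cells over CD8 T cells of KPPCN 1 (x axis), for T cell genes grouped by role (y axis). Filled points with counting intervals are all cells and open diamonds are cells below 5000 UMIs; genes of regulatory cells lie to the right, Nkg7, Ctsw, Klrd1 and Ly6c2 to the left (Nkg7 at -2.21), and receptor genes near 0.

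The genes with the largest ratios of summed UMIs owed much to single cells. Higher in members were, in order, Wfdc17, Id1, Il1r2, Il2ra, Mal, Cd4, Actg2, Lgals2, Pxdc1 and Retnla, and in 5 of these 10 most of the UMIs came from 1 cell, for example 439 of 462 for Retnla and 148 of 164 for Wfdc17, which are expressed by macrophages. Lower in members were Camp, Ngp, S100a9, S100a8, Ccl22, Wfdc21, Prg4, Ggt1, Gzmm and Lcn4, and for 7 of these 1 CD8 T cell held most of the UMIs, as with 1504 of 1528 UMIs of S100a9, a neutrophil gene. Below 5000 UMIs the genes highest in members were Cd4, Cd40lg, Foxp3, Mmp13, Gzma, Zbtb7b, Nav2, Pxmp4, Il2ra and Ccl1, where all 42 UMIs of Mmp13 and all 40 of the chemokine Ccl1 came from 1 cell each. The genes lowest in members below 5000 UMIs were Lcn4, Fam241a, Bend4, Ggt1, Adgrg5, Cd72, Ccr9, Ly6c2, Hdgfl3 and Racgap1, and none of these 10 drew most of its UMIs from 1 cell. Ccr9, a chemokine receptor that guides T cells to the gut, had 20 UMIs in members and 67 in CD8 T cells.

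The most abundant RNAs, apart from ribosomal protein and mitochondrial genes, included Malat1 at 20191.2 CPM in members and 14974.8 CPM in CD8 T cells, Tmsb4x at 9340.6 CPM in members and 8636.3 CPM in CD8 T cells, and Actb at 8015.8 CPM in members and 7611.4 CPM in CD8 T cells. S100a6 stood at 7505.1 CPM in members and 1456.3 CPM in CD8 T cells, and Clu, a gene of epithelium, at 2503.3 CPM in members and 573 CPM in CD8 T cells. These levels compare 1 gene between populations and not genes with each other. They are sums over all cells, and deep cells weigh on the populations unequally. Cells with at least 5000 UMIs held 47.0% of the UMIs of members and 23.3% of those of CD8 T cells. Levels below 5000 UMIs are not given for these genes, and the part of the deep cells was not tested.

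Within the members, cells with a Foxp3 UMI stood apart by the genes known from regulatory T cells. The 42 cells had a median of 2175 UMIs and the 595 without Foxp3 had 1800. Ikzf2 had UMIs in 83.3% of members with Foxp3 and 12.8% of those without. Tnfrsf4 had UMIs in 69.0% of members with Foxp3 and 8.24% of those without, and Tnfrsf18 in 64.3% of members with and 15.3% of those without. Ctla4 was seen in 47.6% of members with Foxp3 and 6.89% of those without, and Il2ra in 31.0% of members with and 4.03% of those without. In each of these 5 genes the exact intervals of the shares did not overlap. They cover counting error only, and how often intervals part over all genes was not counted. Parting was not particular to regulatory T cell genes. The intervals of Ighm, an antibody heavy chain, also parted, with UMIs in 61.9% of members with Foxp3 and 33.1% of those without. So did those of Cd74, at 52.4% with Foxp3 and 26.9% without, whereas those of Igkc overlapped. Some T cell genes outside the rule parted as well. Cd2 had UMIs in 71.4% of members with Foxp3 and 39.0% of those without, and Cd5 in 40.5% of members with and 13.4% of those without. The intervals of Cd6 and Cd247 overlapped. Klrg1, a receptor of differentiated lymphocytes, had UMIs in 26.2% of members with Foxp3 and 1.68% of those without, Gata3, a transcription factor of type 2 and tissue regulatory T cells, in 35.7% of members with and 6.39% of those without, and Icos in 45.2% of members with and 14.1% of those without. Il1rl1, the receptor for interleukin-33, was found in 16.7% of members with Foxp3 and 1.18% of those without. Cd4 itself had UMIs in 28.6% of members with Foxp3 (interval 15.7 to 44.6%) and 24.4% of those without (21.0 to 28.0%), intervals too wide to place one above the other.

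Some genes of recirculating cells ran the other way by share, and others did not. S1pr1, the receptor by which T cells leave lymphoid tissue, had UMIs in 7.14% of members with Foxp3 and 25.2% of those without. Satb1, a chromatin organiser of T cells, had UMIs in 26.2% of members with Foxp3 and 52.1% of those without. The intervals of both genes did not overlap, again with no count over all genes to set beside this. Tcf7 had UMIs in 14.3% of members with Foxp3 and 30.6% of those without, with overlapping intervals. Ccr7 had UMIs in 28.6% of members with Foxp3 and 25.9% of those without. Il7r, a receptor chain for interleukin-7, had UMIs in 38.1% of members with Foxp3 and 20.8% of those without. The intervals of these genes overlapped too. Summed over cells, 561 of 7051 genes (7.96%) were at least 2-fold higher in members with Foxp3 and 1064 (15.1%) at least 2-fold lower. Below 5000 UMIs these were 512 of 4321 (11.8%) and 458 (10.6%), so that with 33 cells a 2-fold ratio was common among all genes. Of the regulatory list without Foxp3, 8 of 12 measured genes were higher and none lower, with a median log2 ratio of 1.50 against -0.09 over all genes, and below 5000 UMIs 9 of 9, with a median of 2.56. RNA of other cells moved with this split. Below 5000 UMIs all 3 measured erythroid genes were higher with Foxp3, summing to 24867.3 CPM in members with Foxp3 and 4919.5 CPM in those without, and 2 of 4 B cell genes were higher. Over all cells the epithelial list summed to 6675.5 CPM in members with Foxp3 and 1791.3 CPM in those without. The part of this RNA in the result was not tested. Of the 10 recirculating genes 8 were lower and none higher, with a median of -1.68, and below 5000 UMIs 5 were lower and none higher. Cell cycle genes were higher in 9 of 10, but below 5000 UMIs none of the 2 still measured passed 2-fold. Of the 10 genes highest with Foxp3 by summed UMIs, Gm26870, 1700012B09Rik, Lgals2, Sema3c, Rrm2, Lmo1, Tnfrsf4, Cldn2, Eno3 and Wfdc2, 9 drew most of their UMIs from 1 cell, Tnfrsf4 being the exception with 161 UMIs over 29 cells. Among the 10 lowest with Foxp3, Agr2, Sfn, Wfdc17, Retnla, Lyz2, Ly6c2, Ccl6, Il1b, Tagln and Bcl2l11, 6 drew most of theirs from 1 cell without Foxp3. Ly6c2 was spread, with 1 UMI in members with Foxp3 and 127 UMIs over 48 of those without, and so was Bcl2l11, which encodes the death factor BIM, with 1 UMI in members with Foxp3 and 107 UMIs over 73 of those without. Below 5000 UMIs the 10 highest were Tnfrsf4, Cd83, Ikzf2, Rrad, Glrx, Col18a1, Tnfrsf9, Tnfrsf18, Cish and Eea1, and the 10 lowest were Eif3d, Scp2, Pura, Trim12a, Nufip2, mt-Nd3, Snu13, Nsg2, Pecam1 and Cic.

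**Figure D4:**
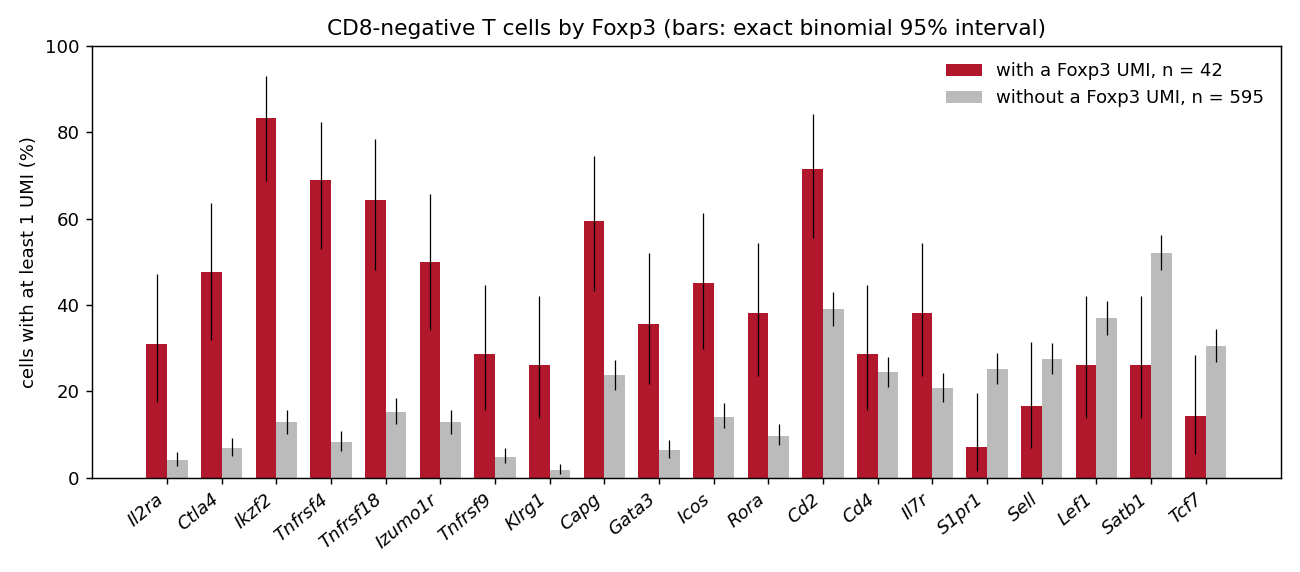
Share of CD8-negative T cells with at least 1 UMI (y axis, %) of genes of regulatory, helper and recirculating T cells (x axis), in the 42 cells with a Foxp3 UMI and the 595 without, with exact binomial 95% intervals. Ikzf2 is found in 83.3% of cells with Foxp3 and 12.8% of those without, whereas Satb1 is found in 26.2% of cells with Foxp3 and 52.1% of those without.

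Members with a Cd4 UMI were set against those without in the same way, with median depths of 1865 UMIs with Cd4 and 1800 UMIs without. Icos had UMIs in 23.6% of members with Cd4 and 13.8% of those without, Izumo1r in 24.8% of members with and 12.1% of those without, and Slamf6, a receptor of lymphocytes, in 28.0% of members with and 15.8% of those without. Cd28, the main costimulatory receptor of naive T cells, was found in 38.9% of members with Cd4 and 24.6% of those without. In the other direction Nkg7 had UMIs in 5.10% of members with Cd4 and 18.8% of those without, and Ly6c2 in 0.637% of members with and 10.0% of those without. Foxp3 was about as frequent in both, at 7.64% of members with Cd4 and 6.25% of those without.

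Summed over cells, 286 of 7051 genes (4.06%) were at least 2-fold higher in members with Cd4 and 1339 (19%) at least 2-fold lower, and below 5000 UMIs 58 of 4321 (1.34%) were higher and 181 (4.19%) lower. All 4 measured cytotoxic genes were 2-fold lower with Cd4 below 5000 UMIs, and 3 of 4 over all cells. Genes of other cells fell with them: below 5000 UMIs 3 of 3 erythroid genes were lower, summing to 1847.2 CPM in members with Cd4 and 7646.2 CPM in those without, as were 2 of 3 epithelial genes (5 of 6 over all cells), and their part in the result was not tested. Trdc, the constant region of the delta chain, had 4 UMIs in members with Cd4 and 101 UMIs in 33 of those without. Of the 12 receptor signalling genes 7 were higher with Cd4 over all cells and none below 5000 UMIs. The regulatory list likewise had 7 of 13 higher and 2 lower over all cells and none of 10 in either direction below 5000 UMIs. The follicular helper list had 3 of 4 higher and none lower over all cells, and none of 3 in either direction below 5000 UMIs. For the naive and recirculating list, 6 of 10 were higher and none lower over all cells, and none of 10 passed 2-fold below 5000 UMIs. The highest genes with Cd4 were Ccl1, Il1b, Il1r2, Tnfsf8, St8sia1, Cxcl2, Slamf1, Gimap8, Cdpf1 and Cd40lg, and 4 of these drew most of their UMIs from 1 cell. Tnfsf8 had 47 UMIs over 21 members with Cd4 and 39 UMIs over 28 of those without, a ratio of 5.65. The lowest were Wfdc17, Fxyd3, Tagln, C1qa, Dpcr1, Id1, Bok, Ccl6, Igfbp3 and Hes1, of which 5 drew most of theirs from 1 cell without Cd4. Below 5000 UMIs the 10 highest were Ccl1, Tnfsf8, St8sia1, 1110034G24Rik, Cmtm6, Wdr48, Cab39l, Smn1, Rps19bp1 and Hist1h4c, and the 10 lowest Cxcl14, Irf8, Trdc, Gzma, Lpl, Vcan, Ccl5, Dpysl3, Cnot8 and Zfc3h1. Ccl5 had 78 UMIs in members with Cd4 and 1229 UMIs in those without, at this depth.

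Part of the cells without CD4 and CD8 carried genes of gamma-delta T cells. At least 1 UMI of Trdc, Tcrg-C1, Tcrg-C2 or Tcrg-C4 was found in 42 members (6.59%, interval 4.79 to 8.81%), and at least 2 of these genes in 17. Of the 42, 2 also held Cd4, and Trdc met Trac in 3 members. Trdc had 105 UMIs in 35 members (5.49%), against 26 UMIs in 2.69% of CD8 T cells, a CPM ratio of 2.06 (1.33 to 3.30). Tcrg-C1, a constant region of the gamma chain, had 30 UMIs in 12 members and 4 UMIs in CD8 T cells. Over all cells 3 of 4 measured genes of the gamma-delta list were at least 2-fold higher in members and none lower, against 17.5% of all genes higher. In cells below 5000 UMIs 1 of 3 was higher and none lower, against 6.35% of all genes higher. Ncr1 or Klrb1c, genes of NK cells, had UMIs in 10 members (1.57%).

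Clustering of the members on their own, with the rule genes among the genes measured, gave 10 clusters of 21 to 94 cells. The genes that lead a cluster made it, so they are a description. Cluster 8 (65 cells) is regulatory T cell-like by the markers: Foxp3, Il2ra, Ctla4, Tnfrsf4 and Klrg1 were among its 10 leading genes, with Foxp3 UMIs in 29 of its cells, Ctla4 in 34, Il2ra in 25, Tnfrsf4 in 48 and Ikzf2 in 49. Its first gene was Dntt, the terminal transferase of immature lymphocytes, with 35 UMIs in 7 cells. Tcrg-C1, of the gamma chain, was also among the 10, with 22 UMIs in 4 cells, and Trdc had UMIs in 10.8% of its cells. It held 29 of the 42 members with Foxp3. Cluster 4 (80 cells) was led by Ccl5, Ifng, Ly6c2, Xcl1 and Nkg7, and Ccl5 had UMIs in 77.5% of its cells, Nkg7 in 73.8%, Trdc in 17.5% and Cd4 in 4 cells. Gzma and Ctsw were also among its 10 leading genes, with Ctsw UMIs in 56.2% of its cells and Gzma UMIs in 5 cells. By these genes the cluster is cytotoxic-like, and it was given no cell type name. Cluster 5 (71 cells) was led by Ccl1, from 1 cell, and by Izumo1r, Tbc1d4, Lpxn and Tnfsf8, with Izumo1r UMIs in 43.7% and Cd4 in 39.4% of cells. It shared regulatory genes with cluster 8 at lower shares: Ikzf2 had UMIs in 39.4% of its cells, Ctla4 in 21.1%, Tnfrsf4 in 19.7% and Il2ra in 8.45%. Foxp3 had UMIs in 7 of its cells. Clusters 0 (94 cells), 2 (84 cells) and 9 (21 cells) had weak leading genes, none with more than 25 UMIs, and Lef1 UMIs in 56.4%, 53.6% and 33.3% of cells.

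The remaining 4 clusters were led by genes of other cells, 2 of them (clusters 6 and 7) with few T cell genes. Cluster 6 (41 cells) had a median of 10682 UMIs and held 35.0% of all UMIs of the members, with Krt18 UMIs in 97.6% of cells, Trac in 17.1% and at least 2 of the 13 T cell genes in 16 cells. It was led by Agr2, Onecut2 and Dpcr1. Cluster 7 (22 cells) was led by Mmp13, Cxcl14, Tagln, Fmod and Acta2, with Acta2, an actin of smooth muscle and activated fibroblasts, in 11 cells, and Trac in 13.6% of cells, and held 8.19% of the UMIs. Cluster 1 (69 cells) was led by the globins Hbb-bt, Hbb-bs, Hba-a1 and Hba-a2, a lead from few cells: 1939 of the 5452 UMIs of Hbb-bs lay in 1 cell, Hbb-bt had UMIs in 17 cells, and Hbb-bs was found in 91.3% of cells of cluster 1 and 89.4% of cluster 0. At least 2 of the 13 T cell genes were found in all cells of cluster 1 and in 96.7% of cluster 3, with Trac in 56.5% and 55.6%. Cluster 3 (90 cells) was led by C1qc, Retnla and Lyz2, macrophage genes, and all 31 UMIs of C1qc came from 1 cell, so this cluster takes its lead from single cells, while Lef1 had UMIs in 47.8% of its cells.

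**Figure D5:**
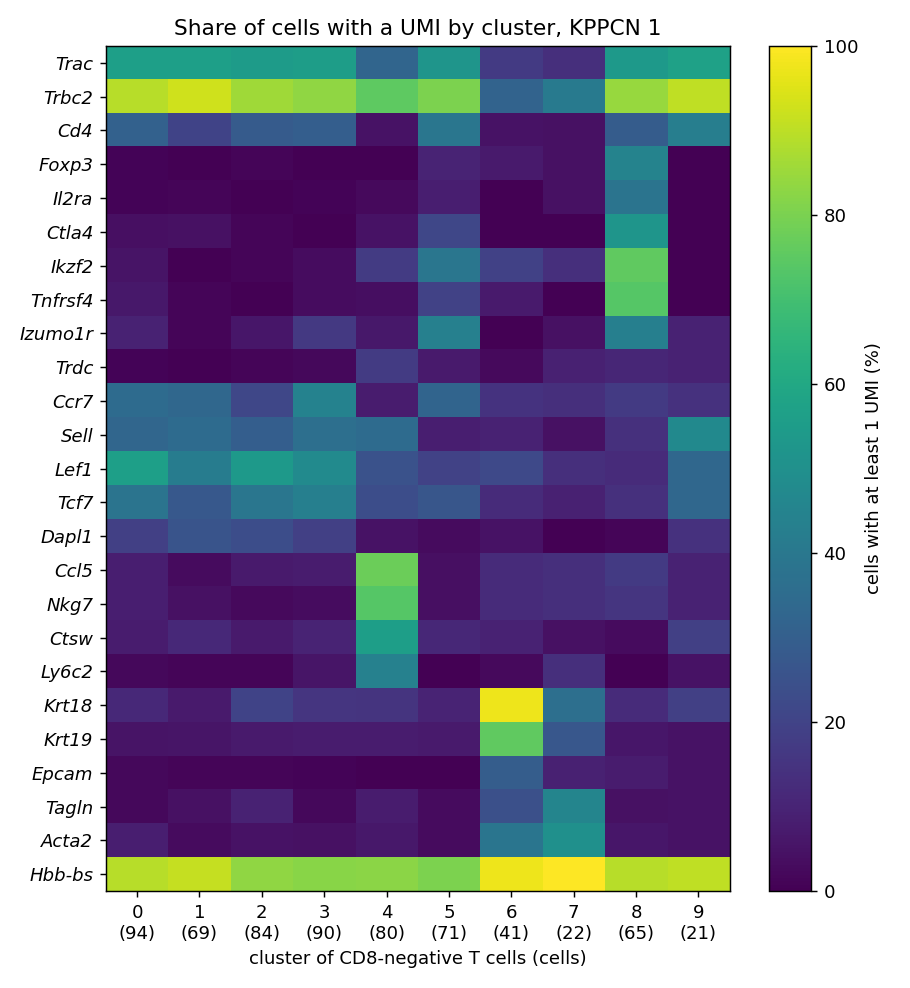
Share of cells with at least 1 UMI (colour, 0 to 100%) of T cell genes and genes of other cells (rows) in the 10 clusters of CD8-negative T cells, with cells in brackets (columns). Foxp3, Il2ra, Ctla4, Ikzf2 and Tnfrsf4 are most frequent in cluster 8 and next in cluster 5. Ccl5 and Nkg7 are most frequent in cluster 4, and Krt18 in cluster 6, where Trac is found in 17.1% of cells.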

How the data were processed

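The deposited values of both tables are on a natural log scale, as the values themselves show: in each cell the exponential minus 1 sums to 10000. Per the submitters' processing notes, the tools named are Seurat 3.0.2, Cell Ranger 2.1.0 and R 3.5.1, and the build is GRCm38; the authors' filters are not given in the sources used here. UMIs were recovered from the smallest step of each cell, and 100% of values came out whole within 0.01 UMI. The members and gene lists (34 lists) were chosen with earlier results of these data known. Because all members lie in 1 library, no count model or test between conditions was run. Shares of cells carry exact (Clopper-Pearson) intervals at 95%, and ratios of CPM, taken from summed UMIs, carry exact conditional binomial intervals; a count of 0 was set to 3 UMIs in a ratio, as a bound. Genes needed 30 UMIs over both populations, and a 2-fold ratio was called. The text names the genes of the rule, list genes with their list counts, the 10 genes of largest ratio each way, the most abundant genes and the leading genes of clusters. Thinning drew 1000 UMIs per cell. Clusters used 1500 variable genes, 20 principal components, 15 neighbours and the Leiden method at resolution 1 (scanpy 1.11.5, scipy 1.17.1, numpy 2.4.6). No doublet caller was run. The ratio script was tested on simulated data. KPPC could not be entered, so the planned genotype fits and permutation test were not run. An allele shared by both genotypes and a planned filter on genes of other cells are not reported here.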

Additional observations from a re-analysis of the deposited data

How the results depend on the processing

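Leaving out 1 KPPCN library at a time gave a mean share of members of 0 to 11.8%. No paired analysis was possible because all members lie in 1 KPPCN library and the KPPC columns carry no replicate numbers. The share of cells that met the rule, 11.8%, was 5.81% with at least 1000 genes per cell, 8.59% with at least 2 CD3 UMIs, 9.84% with Dcn at 0, 29.4% when cells with a UMI of Ms4a1, Lyz2, Csf1r, Epcam or Col3a1 were left out, 14.9% among cells below 5000 UMIs and 19.6 members were counted per 100 cells without a Ptprc UMI. The Cd4 share, 24.6%, was 14.3% with cells thinned to 1000 UMIs, and within the interval of the share under the other settings. The Foxp3 share, 6.59%, was 13.5% with at least 1000 genes and 4.03% thinned. The share with at least 2 other T cell genes, 92.9%, was 80.0% with at least 1000 genes, 98.3% with 2 CD3 UMIs, 98.1% with the 5 genes left out, 96.4% with Dcn at 0, 96.2% below 5000 UMIs and 83.9% thinned. Genes past 2-fold against CD8 T cells, 1569 in all, numbered 679 with 2 CD3 UMIs, 959 with 2 other T cell genes, 172 with the 5 genes left out, 557 with Dcn at 0, 424 below 5000 UMIs and 2752 with a minimum of 10 UMIs. Between members with and without Cd4 they numbered 529, 899, 120, 439, 239 and 2675 in that order against 1625, and by Foxp3 they numbered 928 with 2 CD3 UMIs, 1057 with Dcn at 0, 970 below 5000 UMIs and 2637 with 10 UMIs, against 1625. With the 5 genes left out fewer than 20 cells had Foxp3, so no value was computed. Scaling by trimmed means moved the share of higher genes among those past 2-fold against CD8 T cells to 78.5%, against 91.4%.

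Of 90 ratios of named genes, recomputed 745 times, 625 kept their side of 2-fold and their direction, 70 lost the 2-fold, 16 gained it and 34 reversed. Against CD8 T cells the log2 ratio of Retnla was -0.08 with 2 CD3 UMIs, -0.29 with Dcn at 0 and -0.02 below 5000 UMIs. That of S100a9 was 1.34 with the 5 genes left out, 0.38 with Dcn at 0 and 0.98 below 5000 UMIs, and that of S100a8 was 0.17, 0.45 and 0.41 in that order. That of Ngp was 0.83 with Dcn at 0 and 0.98 below 5000 UMIs, and that of Prg4 was 1.37 below 5000 UMIs. By Cd4, Cxcl2 had -0.04 with the 5 genes left out, -1.81 with Dcn at 0 and -2.46 below 5000 UMIs. By Foxp3 with 2 CD3 UMIs, Lgals2 had -1.06, Eno3 -1.33, Wfdc2 -3.40, Wfdc17 0.73, Retnla 0.99 and Ccl6 0.73. With 2 other T cell genes, Gm26870 had -3.03. With Dcn at 0, Eno3 had -0.67, Wfdc2 -2.45, Wfdc17 1.33, Retnla 0.59 and Il1b 0.33. Below 5000 UMIs, Eno3 had -0.58, Wfdc2 -1.28, Wfdc17 0.55 and Retnla 1.68. With cells of equal weight, Sema3c had -0.52, Eno3 -0.23 and Wfdc2 -0.04. The cause of these reversals was not tested. The settings below 5000 UMIs, of equal weight and with the 5 genes left out were chosen after seeing the data. Clusters at resolutions 0.5, 1 and 2 numbered 5, 10 and 22, and the cluster with most Foxp3 cells held 36, 29 and 29 of the 42. Depth limits every share, since most Cd4 and Foxp3 calls rest on 1 UMI.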
